A study of Mus musculus with 24 samples.

Results

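Glutamate receptors and the scaffold of the postsynaptic density were followed as 43 genes in the cortex of mice in which TREM2 expression can be switched on in microglia. The members were the rows of the deposited gene count table whose gene name is one of a list of receptor subunits, their auxiliary subunits, scaffold proteins, kinases and adhesion molecules. All 43 were among the 43346 genes of the table, and all 43 were among the 19678 genes that passed the filter on low counts. Bulk RNA sequencing had been done on 24 cortices, 6 mice in each of 4 groups on a C57BL/6 background. The WT groups carried TREM2-WT+/+ and the R47H groups TREM2-R47H+/+, the variant of the microglial receptor TREM2 that is a known risk factor for Alzheimer's disease. Every mouse, control or induced, was Cx3cr1CreER/+: 1 copy of the Cx3cr1 locus, which in the brain is active mainly in microglia, drives a Cre recombinase that tamoxifen activates. Induced mice received tamoxifen and control mice corn oil, so that tamoxifen itself and the induction of TREM2 cannot be told apart. The counts of Y-linked genes and Xist gave 3 males and 3 females in each group, as the series text states. The labels give no age.

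Glutamate released at an excitatory synapse opens AMPA and kainate receptors, which carry the fast current, and NMDA receptors, which admit calcium when the membrane is already depolarised. Metabotropic receptors act through G proteins. Behind the membrane, membrane-associated guanylate kinases such as PSD-95 bind the receptors and join them through SAPAP proteins to Shank and Homer, while CaMKII is the calcium-activated kinase of the density and neuroligins and LRRTMs reach across the cleft to presynaptic neurexins. Most of these genes are expressed mainly by neurons, whereas the induced allele acts in microglia. In bulk tissue, fewer cells of a type and less RNA per cell cannot be told apart.

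Libraries held 27933505 to 56082520 counts, and the lowest count of any member in any library was 284. Markers of cortical excitatory neurons were present, with a summed level of 1970 to 2280 CPM (counts scaled to a common library size, with TMM factors) over the 24 libraries and none of the 12 markers at 0 in any library. Markers of striatal medium spiny neurons were also present, none of 16 at 0 in any library, with a summed level of 2056 to 2361 CPM in WT control, 2231 to 2383 in WT induced, 1881 to 2081 in R47H control and 1862 to 2143 in R47H induced mice. The row for mouse Trem2 stood at 6.40 ± 0.367 CPM in WT control, 6.61 ± 1.43 in WT induced, 7.89 ± 0.974 in R47H control and 6.62 ± 0.534 in R47H induced mice (SD, n = 6 each). The labels do not say whether that row counts reads of the induced allele. One library, R47H induced replicate 1, stood apart in how its levels followed transcript GC content, with a slope of -0.13 on the log2 scale per 10 points of GC against -0.07 to 0.06 in the other libraries.

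Among the members the level per kilobase of gene length, averaged over the 24 libraries, was highest for Camk2a, the alpha subunit of CaMKII, at 328 CPM per kilobase. Dlg4, which encodes PSD-95, followed at 109, Camk2b at 91.2, the AMPA receptor auxiliary subunit Cnih2 at 72.0 and the SAPAP scaffold Dlgap3 at 60.8. The lowest were the metabotropic receptor Grm8 at 2.05, the kainate subunit Grik4 at 3.14, the NMDA subunit Grin2d at 3.17, Grik1 at 3.39 and the scaffold Homer3 at 3.47. Within the AMPA family the level per kilobase fell in the order Gria1 (59.3), Gria2 (44.0), Gria3 and Gria4 (18.6). That order depended on the gene length used, 6043 bases for Gria1 and 15548 for Gria2. In CPM, without the length, Gria2 stood above Gria1, at 685 against 358. Grin2b, at 31.1, stood above the other GluN2 subunits Grin2a, at 9.17, and Grin2d. The spread within a group, as SD of log2 CPM, was widest for Grin2d and Camk2a, at 0.14 each.

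**Figure D1:**
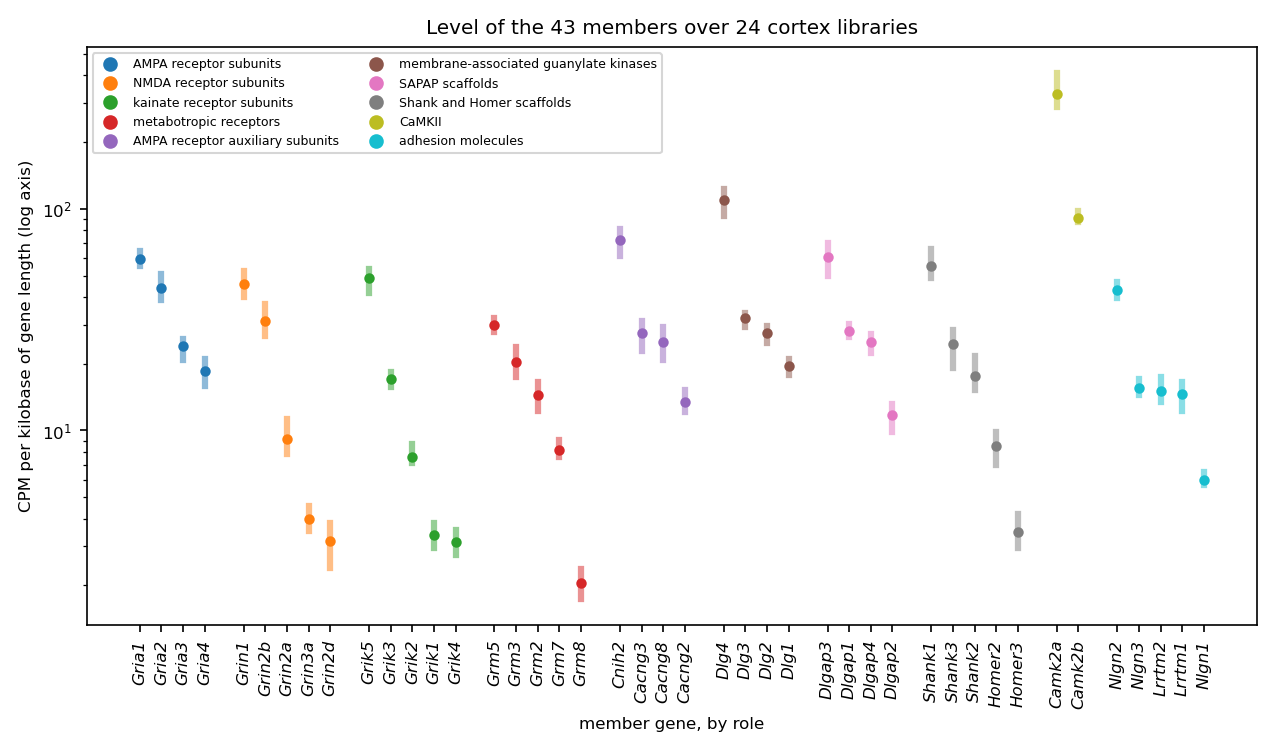
Mean level of each of the 43 members over 24 cortex libraries (point) with the lowest and highest library (bar), in CPM per kilobase on a log axis, by role. Camk2a is highest at 328 and Grm8 lowest at 2.05 CPM per kilobase.

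The first question was whether switching on TREM2 changed these genes in either genotype. No member was called at an adjusted p below 0.05 (edgeR quasi-likelihood test, Benjamini-Hochberg over 19678 genes) in WT mice, in R47H mice, in the difference between these inductions or in their mean, and DESeq2 and limma-voom called none of them either; over all genes DESeq2 called 10, 4, 3 and 4. The share of all tested genes called by edgeR in each of these comparisons was 0%. At an unadjusted p below 0.05 there were 2 members in WT, 3 in R47H, 2 in the difference and 1 in the mean, against 1545, 1006, 1562 and 913 of all 19678 genes.

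The induction values were small in both directions. In WT mice 22 of 43 were positive, the median log2 difference was 0.00 and the range -0.10 to 0.12. In R47H mice 22 of 43 were positive, the median was 0.00 and the range -0.12 to 0.17. Standard errors were 0.03 to 0.08 in both. These signs depended on the scaling: with library totals in place of TMM, 4 of 43 were positive in WT mice (median -0.04, the same as over all genes) and 37 of 43 in R47H mice (median 0.05, against 0.06 over all genes). No member had induced and control libraries that did not overlap, in WT (0.234% of all genes) or in R47H mice (0.34%). The induction comparisons and the genotype comparisons below share libraries.

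By role, the members with the lowest p were scattered. Grik1, a low-level kainate subunit, had a log2 difference of 0.12 (SE 0.05, adjusted p = 0.568) with induction in WT mice and -0.04 in R47H mice. Grin3a, the NMDA subunit known for reducing calcium entry through the receptor, was at 0.09 (SE 0.04, adjusted p = 0.605) in WT and 0.01 in R47H mice. Grm2, a presynaptic metabotropic receptor, had -0.10 (adjusted p = 0.714) and Grin1, the obligatory NMDA subunit, -0.07 (adjusted p = 0.754) in WT mice. In R47H mice Nlgn3, a neuroligin, had -0.09 (adjusted p = 0.949), Grin2b -0.12 (adjusted p = 0.960), Camk2a 0.17 (SE 0.08, adjusted p = 0.960) and Shank1 -0.11 (adjusted p = 0.970). Another gene covers 41.2% of the exon bases of Nlgn3, and the library kit does not mark strand, so its counts are uncertain.

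For the difference between the inductions, Gria3 came first at 0.12 (SE 0.05, adjusted p = 0.585), followed by Grik1 at -0.17 (SE 0.07, adjusted p = 0.613), Gria2 at 0.12 (adjusted p = 0.671) and Grin2b at -0.13 (adjusted p = 0.694). For the mean of both genotypes Shank1 came first at -0.08 (SE 0.04, adjusted p = 0.995), with Grm2 at -0.07, Grin3a at 0.05 and Nlgn3 at -0.05 at the same adjusted p.

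**Figure D2:**
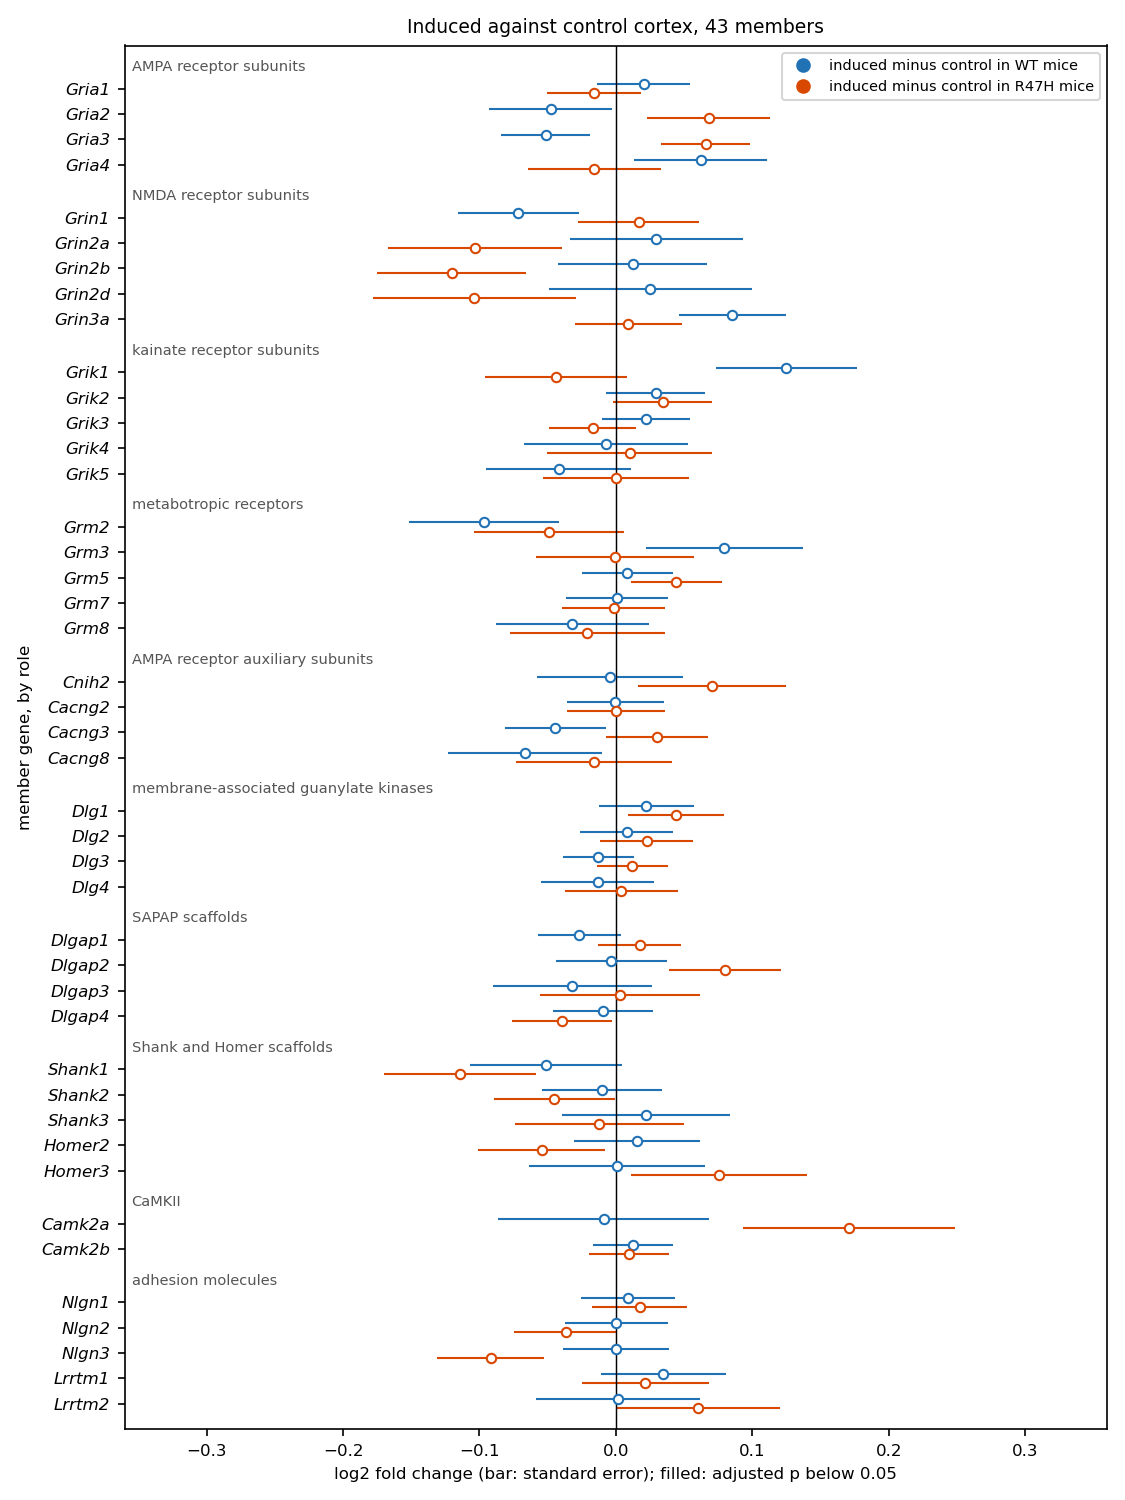
Log2 fold change of induced against control mice for each member, in WT (blue) and R47H (orange) mice, with the standard error as a bar and n = 6 mice a group. All points are open, since none passed an adjusted p of 0.05, and they lie between -0.12 and 0.17.

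The second question was whether the genotypes differed. The variant and any other difference between the WT and R47H mice, such as line or dissection, cannot be told apart. Control mice received no tamoxifen, so a genotype difference among them was seen without tamoxifen. Whether TREM2 was switched on in any of them without it was not tested. Averaged over both treatments, 14 of 43 members differed, 13 lower and 1 higher in R47H mice, where 13.8% of all tested genes were called (7.2% lower and 6.65% higher). Among the 9891 genes at or above the mean level of the lowest member, 17.7% were called and 9.36% were called lower. Those genes share only that floor with the members and were not matched to them in level. Of the 43 members, 30 had a negative log2 difference and the median was -0.04, against a median of -0.00 over all genes. The differences were modest, from 5.54% to 13.8% lower among those that fell, and they were spread unevenly over the roles. Of the scaffold genes, 3 of 4 membrane-associated guanylate kinases, 2 of 4 SAPAPs and 3 of 5 Shank and Homer genes fell, as did 2 of 4 AMPA receptor auxiliary subunits and 1 of 5 adhesion molecules. Of 5 NMDA subunits 2 fell and 1 rose, while 0 of 4 AMPA, 0 of 5 kainate and 0 of 5 metabotropic receptor genes and 0 of 2 CaMKII genes passed. That contrast between roles was not tested.

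Homer2, which links metabotropic receptors to Shank, had a lowest, median and highest level of 98.7, 100.8 and 106 CPM in WT control, 98.1, 102 and 110.2 in WT induced, 80.6, 88.2 and 102 in R47H control, and 78.2, 86.4 and 97.3 in R47H induced mice. In induced mice every R47H library lay below every WT library, and in control mice the groups overlapped through a single R47H library. The level was 13.8% lower in R47H mice over both treatments (log2 -0.21, SE 0.03, adjusted p = 4.2e-05), with log2 -0.18 (adjusted p = 0.0205) in control and -0.25 (adjusted p = 0.00121) in induced mice. Shank2, a master scaffold of the density, had 187, 194 and 231 CPM in WT control, 187, 201 and 208 in WT induced, 166, 176 and 192 in R47H control, and 163, 172 and 179.5 in R47H induced mice. Its groups overlapped in control and not in induced mice. The difference was log2 -0.19 (SE 0.03, adjusted p = 7.2e-05) over both treatments, -0.18 (adjusted p = 0.0150) in control and -0.21 (adjusted p = 0.00335) in induced mice.

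Shank3, whose loss is known to cause a form of autism, was at log2 -0.17 (SE 0.04, adjusted p = 0.0112) over both treatments. It passed in neither treatment alone, at -0.15 (adjusted p = 0.162) in control and -0.18 (adjusted p = 0.0815) in induced mice, and its groups overlapped in both. Shank1 had -0.11 (adjusted p = 0.0707) over both treatments and Homer3 0.03 (adjusted p = 0.743). Homer3 shares 25.4% of its exon bases with another gene.

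Among the AMPA receptor auxiliary subunits, Cacng3 and Cacng2 (stargazin), which carry receptors to the synapse, were lower. Cacng3 had a lowest, median and highest level of 79.4, 81.9 and 86.9 CPM in WT control, 77.5, 79.8 and 82.8 in WT induced, 63.4, 72.4 and 76.3 in R47H control, and 68.0, 73.6 and 76.7 in R47H induced mice. All 12 R47H libraries lay below all 12 WT libraries, which held for no other member and for 0.615% of all genes in either direction. The log2 difference was -0.16 (SE 0.03, adjusted p = 6.96e-05) over both treatments, -0.20 (adjusted p = 0.00122) in control and -0.13 (adjusted p = 0.0392) in induced mice. Cacng2 had 72.5, 76.7 and 83.9 CPM in WT control, 74.6, 77.6 and 79.9 in WT induced, 66.9, 70.5 and 77.8 in R47H control, and 67.9, 71.1 and 73.8 in R47H induced mice. It was at log2 -0.13 in control (adjusted p = 0.0331), in induced mice (adjusted p = 0.0325) and over both (SE 0.03, adjusted p = 0.000924), with groups that overlapped in control and not in induced mice. Cnih2 and Cacng8 did not pass, at -0.04 and -0.08.

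Of the membrane-associated guanylate kinases, Dlg4 had a median of 572 CPM in WT control, 570 in WT induced, 518 in R47H control and 526 in R47H induced mice. Its libraries overlapped in both treatments, from 523 to 611 CPM in WT and from 461 to 553 in R47H mice. The difference was log2 -0.13 (SE 0.03, adjusted p = 0.0028) over both treatments, -0.14 (adjusted p = 0.0438) in control and -0.12 (adjusted p = 0.0816) in induced mice. Dlg3, or SAP102, was at -0.08 (SE 0.02, adjusted p = 0.00273) over both treatments and did not overlap in control mice, with 189 to 198 CPM in WT and 172 to 186 CPM in R47H mice (adjusted p = 0.0285). Dlg2, or PSD-93, was at -0.08 (adjusted p = 0.0176) over both treatments only, and Dlg1 at -0.04 did not pass. Of the SAPAPs, Dlgap3 had log2 -0.18 (SE 0.04, adjusted p = 0.00425) over both treatments, with 274 to 319 CPM in WT control and 233 to 290 in R47H control mice (adjusted p = 0.0469). Dlgap4 was at -0.10 (SE 0.03, adjusted p = 0.0125), and Dlgap1 and Dlgap2 did not pass, at -0.01 and -0.08.

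The NMDA receptor genes moved in both directions. Grin3a was the only member called higher in R47H mice, with a lowest, median and highest level of 43.2, 44.7 and 46.8 CPM in WT control, 45.4, 48.0 and 49.8 in WT induced, 48.1, 52.4 and 54.9 in R47H control, and 49.6, 51.6 and 56.1 in R47H induced mice. Its control groups did not overlap and its induced groups did, by a narrow margin. The log2 difference was 0.17 (SE 0.03, adjusted p = 0.000131) over both treatments, 0.20 (adjusted p = 0.00188) in control and 0.13 (adjusted p = 0.0512) in induced mice. Grin2b, the GluN2 subunit of the highest level here, had 661 to 923 CPM in WT control, 785 to 847 in WT induced, 690 to 846 in R47H control and 662 to 744 in R47H induced mice, so that only the induced groups did not overlap. It passed in induced mice (log2 -0.23, SE 0.05, adjusted p = 0.0114) and not in control mice (-0.10, adjusted p = 0.326), but the difference between the treatments was not called (-0.13, SE 0.08, adjusted p = 0.694). Grin1 had 449 to 506 CPM in WT control and 388 to 465 in R47H control mice, at log2 -0.16 (SE 0.04, adjusted p = 0.0287), and -0.12 (adjusted p = 0.0118) over both treatments. An antisense gene, Grin1os, covers 13.5% of the exon bases of Grin1. Grin2a (-0.12, adjusted p = 0.0683) and Grin2d (-0.05) did not pass.

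Gria3 was the only AMPA subunit called, in control mice, with 240 to 254 CPM in WT and 206 to 243 in R47H mice (log2 -0.12, SE 0.03, adjusted p = 0.0210). In induced mice its log2 difference was -0.01 (adjusted p = 0.940), and over both treatments -0.07 (adjusted p = 0.0543). Gria1, Gria2 and Gria4 were at -0.01, -0.03 and 0.04 over both treatments. The kainate subunits lay between -0.10 (Grik5, adjusted p = 0.0816) and 0.06 (Grik3), and the metabotropic receptors between -0.01 and 0.06 (Grm2, adjusted p = 0.347). Camk2a (0.03) and Camk2b (0.02) did not pass. Of the adhesion molecules, Lrrtm1 fell, with 41.7, 47.4 and 50.1 CPM as lowest, median and highest in WT control, 46.0, 48.4 and 49.1 in WT induced, 38.6, 40.3 and 45.2 in R47H control, and 37.3, 42.5 and 45.0 in R47H induced mice. Its log2 difference was -0.19 over both treatments (SE 0.03, adjusted p = 0.00014), -0.19 in control (adjusted p = 0.0148) and -0.20 in induced mice (adjusted p = 0.00842). Its induced groups did not overlap. Nlgn1, Nlgn2, Nlgn3 and Lrrtm2 did not pass, between -0.05 and 0.05.

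**Figure D3:**
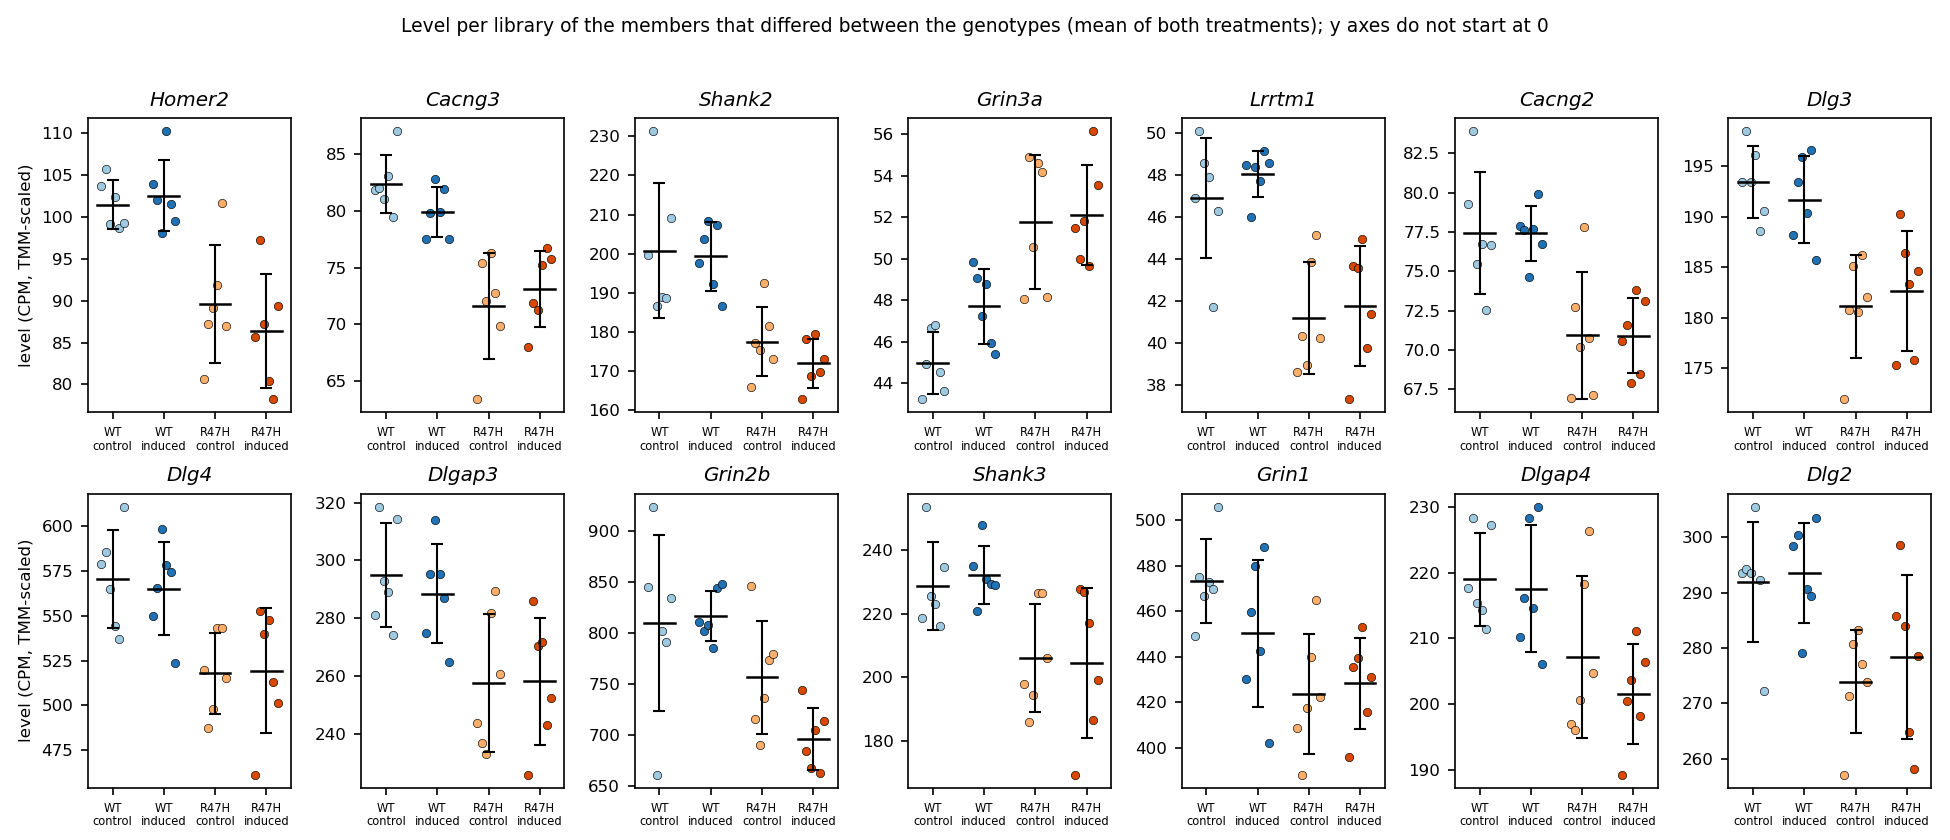
Level in each of 24 libraries (points, CPM scaled by TMM) of the 14 members called over both treatments, by group, with the mean and SD (n = 6 each). The y axes do not start at 0. Homer2 lies at 98.1 to 110.2 CPM in WT and 78.2 to 102 CPM in R47H mice, and only Grin3a is higher in R47H mice.

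The comparisons within each treatment share no library. In control mice 11 of 43 members were called, 10 of them lower (5.74% of all genes called, 3.04% lower and 2.69% higher). In induced mice 6 were called, all lower (5.8% of all genes called, 3.22% lower and 2.59% higher). Among the genes at or above the lowest member's mean level, 7.42% were called and 4.15% called lower in control mice, and 7.11% and 3.78% in induced mice. Groups did not overlap for 3 members in control mice (3.18% of genes) and 6 in induced mice (3.25%). Of the 43, 31 had the same sign in both treatments, 72.1%, against 64.3% of all tested genes. Cacng2, Cacng3, Homer2, Lrrtm1 and Shank2 were called in both treatments, which is 45.5% of the control calls and 83.3% of the induced calls; over all genes those shares were 42.9% and 42.4%. No difference between the treatments was called for any member.

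In control mice the calls depended on single libraries. With any 1 library left out the count ranged from 5 to 11: it was 6 without WT control replicate 1 or 2, 5 without R47H control replicate 1, 6 without R47H control replicate 2 or 6, and 7 without R47H control replicate 3. The calls over all genes also fell in these fits, from 1129 to 841 and 846 without WT control replicate 1 or 2. Without R47H control replicate 1, 2, 3 or 6 they were 864, 852, 1009 and 823. Cacng3, Grin3a, Lrrtm1 and Shank2 passed whichever library was left out, while Dlgap3 passed in 8 of 24 such fits and Dlg4 in 13. In induced mice the count ranged from 4 to 8, and Homer2, Shank2, Lrrtm1 and Grin2b passed throughout. Over both treatments all 14 passed with any single library left out. All 15 immediate early genes had negative log2 differences in control mice, median -0.42 and 0 called. In induced mice 9 of the 15 were positive, with a median of 0.07 and 0 called. The part of these genes in the result was not tested.

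**Figure D4:**
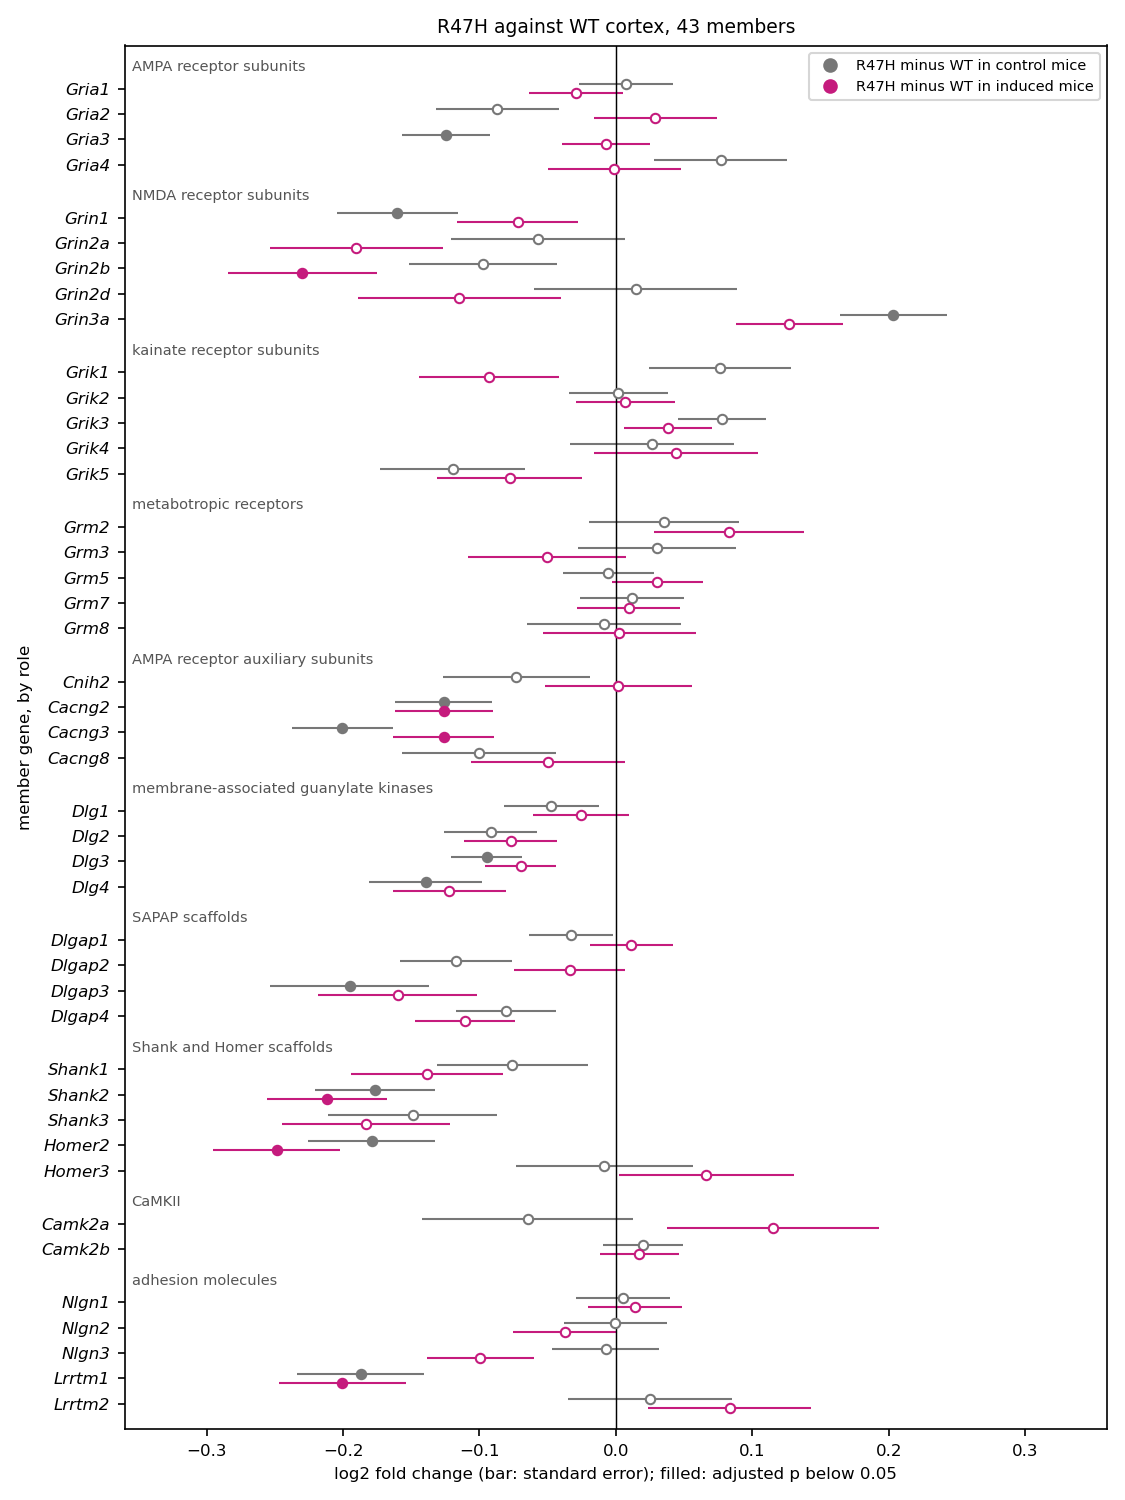
Log2 fold change of R47H against WT for each member in control (grey) and induced (magenta) mice, with the standard error as a bar; filled points passed an adjusted p of 0.05. Of 43 members, 22 were lower and 9 higher in both treatments.

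Levels of striatal marker genes moved with genotype in the same direction. Over both treatments 10 of 16 were called lower, against 7.2% of all genes, and 15 of 16 were negative (median log2 -0.16). Among this list were Pde10a at -0.21 (adjusted p = 6.13e-06) and Scn4b at -0.31 (adjusted p = 4.31e-05). With the mean level of that list as a covariate, only 3 of the 14 calls stayed: Homer2 at log2 -0.22 (SE 0.05, adjusted p = 0.0095), Cacng3 at -0.16 (SE 0.04, adjusted p = 0.0187) and Cacng2 at -0.14 (SE 0.04, adjusted p = 0.0353). Shank3 went from -0.17 to -0.02 (SE 0.05), Grin1 from -0.12 to -0.02 (SE 0.04), Dlgap3 from -0.18 to -0.06 (SE 0.05), Dlg4 from -0.13 to -0.05 (SE 0.04) and Dlgap4 from -0.10 to -0.05 (SE 0.04). Shank2 (-0.15, adjusted p = 0.0519), Lrrtm1 (-0.15), Grin2b (-0.16), Grin3a (0.13), Dlg2 (-0.09) and Dlg3 (-0.06) kept most of their size and lost the call, with larger standard errors. Within a treatment 1 call stayed in control mice (Cacng3) and 1 in induced mice (Homer2). Over all genes the calls in control mice went from 1129 to 446 with this covariate, so the loss of calls was not confined to the members. For both treatments together the members were not set against all genes under this covariate. The covariate itself differed with genotype, with a mean log2 CPM of 6.16 in WT control and 6.19 in WT induced mice. It was 6.03 in R47H control and 6.05 in R47H induced mice. Over both treatments 2 of 12 genes of the excitatory neuron list were called lower, with 8 negative and 6 at an unadjusted p below 0.05. Of the inhibitory list 2 of 10 were called lower, with 6 negative and 2 at an unadjusted p below 0.05. Of all genes 7.2% were called lower and 27.2% had an unadjusted p below 0.05. All 7 choroid plexus markers had positive differences, with 0 called.

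The share of counts in the rRNA-like genes Yam1, AY036118 and Lars2 also differed, at a mean of 15.9% in WT control, 18.3% in WT induced, 20.3% in R47H control and 17.0% in R47H induced libraries. With that share as a covariate the control comparison kept 2 calls (Cacng3 and Grin3a), the induced comparison had 7 and the mean of both treatments 15. Over all genes the calls in the control comparison went from 1129 to 451. The 21 members of higher transcript GC content had a median log2 difference of -0.08 over both treatments and 8 were called lower, and the 22 of lower GC content had -0.01, with 5 lower and 1 higher. All 14 calls stayed with the GC slope of each library as a covariate.

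**Figure D5:**
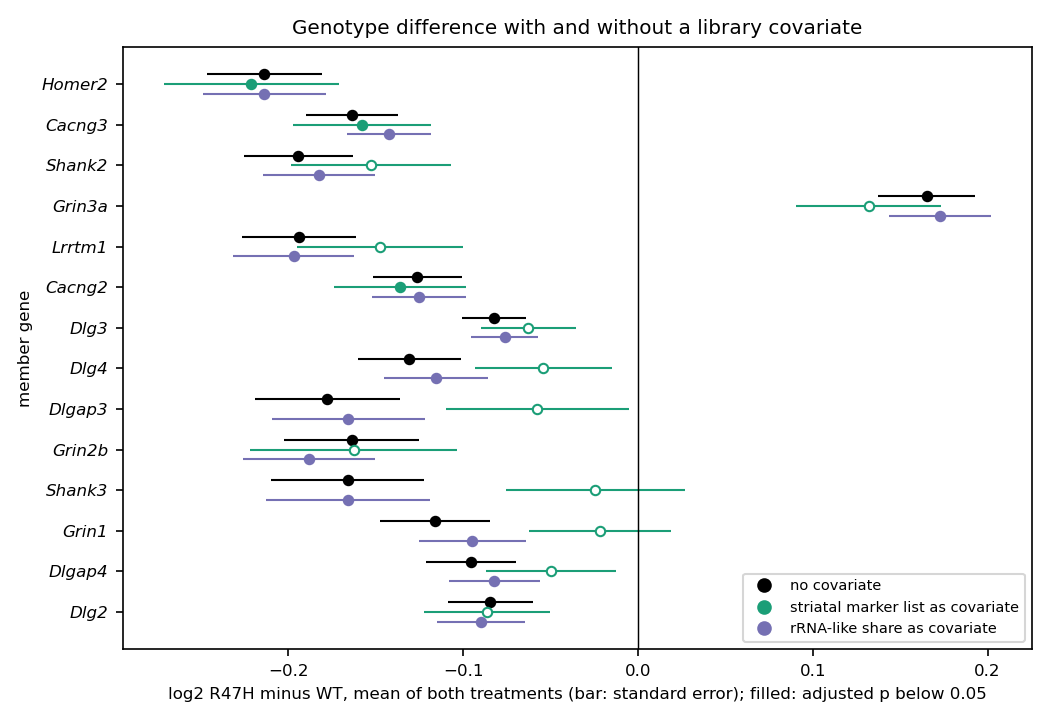
Log2 R47H minus WT over both treatments for the 14 called members, without a covariate (black), with the striatal marker list (green) and with the rRNA-like share (purple); bars are standard errors and filled points passed an adjusted p of 0.05. Shank3 moves from -0.17 to -0.02 with the striatal list, whereas Homer2 goes from -0.21 to -0.22.

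Of 55 other genes of the glutamate synapse, all tested, 16 were called over both treatments, 13 lower and 3 higher in R47H mice (13.8% of all genes called, 7.2% lower and 6.65% higher). Those lower included Nrgn (neurogranin, a calmodulin-binding protein of dendritic spines) at log2 -0.20 (SE 0.03, adjusted p = 1.93e-05), Lrrtm3, a relative of Lrrtm1, at -0.19 (SE 0.03, adjusted p = 2.29e-05) and Lrrc4c, a netrin-G ligand, at -0.11 (SE 0.02, adjusted p = 0.000581). In control mice 7 were called, 5 lower and 2 higher (5.74% of all genes called, 3.04% lower). In induced mice 6 were called, 5 lower and 1 higher (5.8% of all genes called, 3.22% lower).

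Among the tested genes within 1 Mb of each called member, the share called over both treatments ran from 0% (Lrrtm1, 0 of 3) to 25.9% (Dlgap3, 7 of 27), with 23.3% (7 of 30) around Homer2, against 13.8% of all genes.

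The sequence upstream of 3 members called lower is shown to let their promoters be compared. Homer2, Grin1 and Shank3 were chosen after their values were seen, as members whose RefSeq start lay within 15 bases of the 5′ end of the gene in the deposited table. Each is the 250 bases before the start in RefSeq, build GRCm38.p6, 5′ to 3′ on the strand of the gene; capitals mark a GC box (GGGCGG, or CCGCCC on the other strand) or the E-box CACGTG. Homer2 is at chr7:81706926-81707175 (minus strand), Grin1 at chr2:25319188-25319437 (minus strand) and Shank3 at chr15:89499358-89499607 (plus strand).
Homer2: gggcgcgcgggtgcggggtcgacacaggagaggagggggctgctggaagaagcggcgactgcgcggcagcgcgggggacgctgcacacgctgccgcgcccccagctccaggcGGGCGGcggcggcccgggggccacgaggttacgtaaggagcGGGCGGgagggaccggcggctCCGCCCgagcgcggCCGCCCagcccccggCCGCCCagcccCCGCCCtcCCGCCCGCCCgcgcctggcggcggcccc
Grin1: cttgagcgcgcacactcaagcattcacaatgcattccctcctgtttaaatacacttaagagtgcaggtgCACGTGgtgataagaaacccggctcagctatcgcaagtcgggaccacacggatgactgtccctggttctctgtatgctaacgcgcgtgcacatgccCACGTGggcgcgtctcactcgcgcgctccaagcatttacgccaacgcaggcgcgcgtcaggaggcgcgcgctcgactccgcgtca
Shank3: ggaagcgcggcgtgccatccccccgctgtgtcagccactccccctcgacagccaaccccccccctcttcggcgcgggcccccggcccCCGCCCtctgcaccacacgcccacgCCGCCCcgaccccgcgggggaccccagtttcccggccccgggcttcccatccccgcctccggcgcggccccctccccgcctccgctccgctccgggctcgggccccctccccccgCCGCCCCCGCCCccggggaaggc
The GC box matched 8 times in Homer2 and 4 times in Shank3, some of them overlapping, and the E-box matched 2 times in Grin1. Of the 30 members with a RefSeq promoter, 15 held a GC box, against 32.7% of 32851 promoters, and 2 held the E-box, against 6.02%. None held TATAAA on either strand (12.4% of all) or TGACGTCA (1.55%), and 5 held CCAAT on either strand (33.8%). The sets are unlike: each member was counted by the promoter nearest its 5′ end in the deposited table, whereas the 32851 were all listed promoters of all genes. A match is a run of letters and not a measured site.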

How the data were processed

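Total RNA of mouse cortex was enriched for poly-A RNA and made into libraries with a TruSeq kit that does not mark strand, per the labels' protocols. The deposited table holds raw counts per gene made by the authors; STAR 2.5.2b, featureCounts 1.5.1 and build mm10 are named in the submitters' processing notes. Here the 24 libraries (4 groups of 6) were fitted once with edgeR 4.0.16 (R 4.3.3; filterByExpr, TMM, robust quasi-likelihood test; Benjamini-Hochberg over 19678 genes, called below 0.05). Replicates were numbered in accession order; each is 1 mouse in the labels, and no pair of libraries in a group agreed within counting noise (chi-square per degree of freedom at least 4.31 over 60 pairs). Standard errors are the log2 difference over the root of F. DESeq2 1.42.0, limma 3.58.1 (voom), other scalings, filters and covariates were alternatives; sex was assigned from Y-linked genes and Xist. The procedure was tested on simulated data. Members called in any comparison, and the 4 of lowest p in each, are named. The members and lists were chosen with earlier results of these data known. Exon overlap and GC content came from GENCODE vM21, and promoters from RefSeq GRCm38.p6. Some results on the other genes of the glutamate synapse are not reported here.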

Additional observations from a re-analysis of the deposited data

Results flagged for a closer look

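Of 172 member-by-group sets of 6 libraries 5 had 1 library far from the others by Dixon's test, where chance gives about 1 in 20, or 8.6. Gria4 was lowest in WT control replicate 6, at 101 CPM against 110.3 in the next library. Grm8 was lowest in WT induced replicate 1, at 13.6 against 16.0 CPM. Dlgap2 was lowest in R47H control replicate 1, at 60.3 against 68.0 CPM. Shank1 and Nlgn3 were both highest in R47H induced replicate 4, at 466 against 424 CPM and 148 against 137 CPM.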

How the results depend on the processing

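No paired analysis was possible because the labels number the mice without repeats and give no number shared between groups. The induction comparisons called 0 members under every alternative run. In control mice the count of 11 members differing between genotypes became 7 in a fit on the 12 libraries compared, 2 with the rRNA-like share and 1 with the striatal list as covariate, and ranged from 5 to 11 with single libraries left out. Over all genes the control calls went from 1129 to 1001 on the 12 libraries, 451 with the rRNA-like share and 446 with the striatal list. In induced mice the count of 6 became 2 with library totals as scaling, 12 with DESeq2, 11 at a threshold of 0.1, 11 with the GC slope (chosen after seeing the data) and 1 with the striatal list, and ranged from 4 to 8. With library totals the induced calls over all genes went from 1142 to 795. Over both treatments the count of 14 became 3 with the striatal list and ranged from 14 to 18. The other counts for induced mice and for both treatments stand without the count over all genes, so they do not show changes particular to the members. The cause of these changes was not tested. None of the 47 member values recomputed under these alternatives changed sign; among values outside them, library totals made all 4 AMPA genes positive for R47H minus WT in induced mice and all 5 kainate genes, Grik1 among them, positive for induction in R47H mice. RLE scaling, limma-voom and the other filters kept every count within 1.5 times; library totals turned the median of the metabotropic and kainate genes over both treatments from 0.01 and 0.00 to -0.00 and -0.01. The smallest difference called over both treatments was -0.08 in log2 (Dlg2 and Dlg3).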
